A study of Sus scrofa with 13 samples.

Results

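Small nucleolar RNAs (snoRNAs) were examined in pig arteriovenous fistulas, in RNA of the outflow vein, which receives arterial flow once it has been joined to an artery for dialysis access. The genes were chosen by their RPKM: they are the rows that the deposited table gives the biotype snoRNA and that lay above 0.5 RPKM in at least 5 of the 13 libraries: 347 of 556 snoRNA rows, in a table of 30477 genes. RPKM scales the reads on a gene to its length and to the reads of the library. The 8 treated animals (P21, P22, P23, P24, P28, P31, P32 and P42, called 1,25 NP) received 1,25-dihydroxyvitamin D3 in nanoparticles of PLGA, a biodegradable polymer, within a hydrogel. The 5 vehicle animals (P13 to P17) received PLGA and hydrogel, which every animal of the series therefore carried. The question was which vein transcripts differed with the hormone. No source used here gives the age of the pigs, the dose or the time of harvest.

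SnoRNAs are short noncoding RNAs of the nucleolus, the site of ribosome assembly. C/D box snoRNAs, whose genes are named SNORD, guide methylation of the ribose of ribosomal RNA, and H/ACA box snoRNAs, named SNORA, guide the conversion of uridine to pseudouridine. U3 and U8 are C/D box RNAs that are needed for the cleavage of the ribosomal RNA precursor. Most vertebrate snoRNAs are cut out of the introns of host genes, many of which encode ribosomal proteins or translation factors, and they carry no poly(A) tail. The close relatives named SCARNA work in Cajal bodies on spliceosomal RNA.

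The 347 rows hold 132 named SNORD, 69 named SNORA, 8 named U3, 2 named U8 and 2 named SCARNA, so that the biotype in the table takes in a few Cajal body RNAs. A further 134 rows had no symbol, and a reference table of identifiers named 9 of them. Of the 209 snoRNA rows that did not meet the rule, 130 were at 0 in every library. The rule used the RPKM values of both groups, so the levels that follow are a description. Just inside it stood a row of SNORD22 (ENSSSCG00000018512), which held 0.529 RPKM in the library that ranked 5 from the top, and ENSSSCG00000039829, at 0.589 RPKM. Just outside stood another row of SNORD22 (ENSSSCG00000021167), at 0.469 RPKM, and ENSSSCG00000038625, at 0.435 RPKM. Of the members, 253 lay above 0.5 RPKM in all 13 libraries. For 8 members at most 1 vehicle library did so.

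The libraries held between 30261776 and 50271231 reads on genes, recovered from the values. One read of a gene of 72 bases, a common length of a C/D box snoRNA, was worth between 0.272 and 0.453 RPKM, depending on the library. The mean number of reads of a member per library had a median of 61.8 over members, and 87 members averaged fewer than 20 reads. Differences of such members rest on few molecules. SnoRNAs carry no poly(A) tail, and how well the library preparation recovered short RNAs without one was not tested. Levels and shares given here are therefore those of the libraries. Markers of endothelium and contractile smooth muscle were present in every library, and the summed level of 4 skeletal muscle markers was at most 2.09 RPKM in 1,25 NP veins and 0.400 RPKM in vehicle veins. In bulk RNA, fewer cells of a type and less RNA per cell cannot be told apart. The p-values measure the spread between these 13 libraries, which carry 1 animal code each.

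A few genes held most of the snoRNA signal. The table holds 6 places where overlapping rows share their reads, 12 rows in all, so 1 row per locus was used for shares, which leaves 341 loci. The most abundant U3 locus (ENSSSCG00000040361, chromosome 12, 34885727 to 34885942 in the coordinates of the deposited table) made up 57.7% of the RPKM summed over loci and libraries. The top 5 loci made up 73.7% and the top 10 made up 81.5%. It took 23 loci to reach 90% and 117 loci to reach 99%. Counted in reads, the U3 locus held between 1.56% (P21) and 6.76% (P31) of all reads on genes in 1,25 NP veins and between 1.65% (P13) and 3.94% (P14) in vehicle veins.

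Together the 341 loci held 2.40% of the reads in P21, 3.90% in P22, 3.39% in P23, 2.94% in P24, 4.15% in P28, 10.5% in P31, 5.73% in P32 and 8.26% in P42. The vehicle libraries held 2.43% in P13, 6.21% in P14, 3.47% in P15, 5.25% in P16 and 2.53% in P17. P31 and P42 stood above every vehicle library, and the other 6 libraries of 1,25 NP veins lay within or just under the vehicle range. The mean share was 5.15% ± 2.84 in 1,25 NP veins and 3.98% ± 1.68 in vehicle veins (SD, n = 8 and n = 5). Summed RPKM over all members, 1,25 NP over vehicle, gave a ratio of 1.30. Without P31 and P42 the ratio was 0.952, so its direction rests on those 2 libraries.

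**Figure D1:**
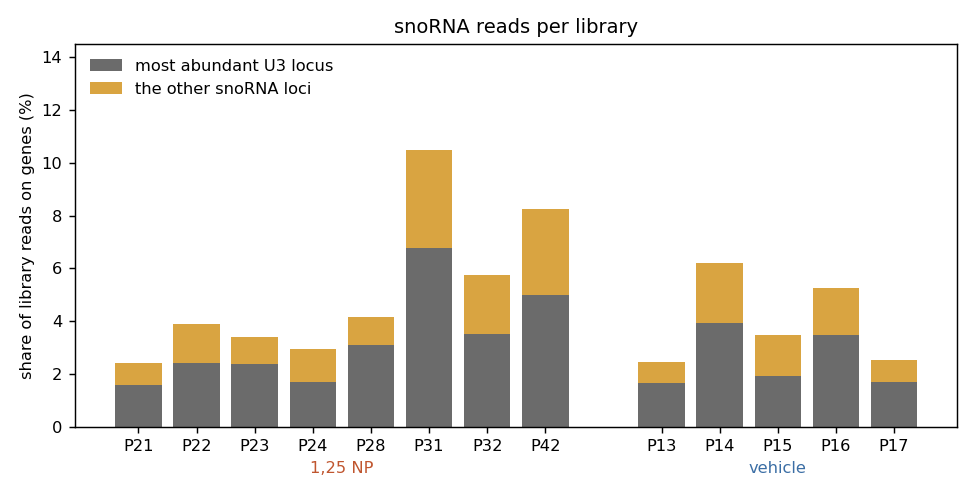
Share of each library's reads on genes (%, bars from 0) that fell on snoRNA loci, 1 row per locus, with the most abundant U3 locus in grey and the other loci in orange; 8 libraries of 1,25 NP veins stand left of 5 vehicle libraries. P31 (10.5%) and P42 (8.26%) are the highest bars, and the U3 locus fills more than any other colour in every bar.

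The U3 RNA of pig is listed at several places. The most abundant locus lay within the span of TEX14, as did 3 further loci with many reads, at 34899381, 34888167 and 34902950 on the same chromosome. The first had 152010 ± 81947 RPKM in 1,25 NP veins and 116352 ± 50196 RPKM in vehicle veins (SD, n = 8 and n = 5). Its log2 difference, 1,25 NP minus vehicle, was 0.32 (SE 0.65). The second (ENSSSCG00000034492) had 16209 ± 6829 RPKM in 1,25 NP veins and 9055 ± 3131 RPKM in vehicle veins (SD, n = 8 and n = 5), and a log2 difference of 0.72 (SE 0.50). In 1,25 NP veins its lowest, median and highest levels were 4215, 18234 and 22257 RPKM, and the vehicle veins P13 to P17 held 6548, 13948, 6746, 10366 and 7667 RPKM. The groups overlapped for both. Without P31 and P42 the first had a log2 difference of -0.0056. TEX14 itself, a gene of germ cell bridges, had a mean of 0.542 RPKM in 1,25 NP and 0.644 RPKM in vehicle veins, a tiny level beside the U3 rows in its span. Copies of U3 can be near-identical, so the reads of each copy are uncertain.

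Next in abundance stood SNORA48 (ENSSSCG00000018563), within EIF4A1, with 12848 ± 10521 RPKM in 1,25 NP veins and 11739 ± 4941 RPKM in vehicle veins (SD, n = 8 and n = 5) and a log2 difference of -0.21 (SE 0.63). Its mean RPKM was higher in 1,25 NP veins while its log2 difference, a difference of means of log2(RPKM + 0.5), was below 0, and neither exceeded the spread between libraries. SNORD22 (ENSSSCG00000029549) had 7264 RPKM in 1,25 NP and 6585 RPKM in vehicle veins, with a log2 difference of -0.058 (SE 0.52). The 2 rows of SNORA73, an H/ACA box RNA also known as U17, had 6038 RPKM in 1,25 NP and 4770.3 RPKM in vehicle veins (ENSSSCG00000034185) and 5407 RPKM in 1,25 NP and 2904 RPKM in vehicle veins (ENSSSCG00000037630). Their log2 differences were 0.28 (SE 0.59) and 0.59 (SE 0.60). SNORD17, a long C/D box RNA, had 4572 ± 1296 RPKM in 1,25 NP veins and 4477 ± 1990.2 RPKM in vehicle veins (SD, n = 8 and n = 5), with a log2 difference of 0.10 (SE 0.38). The other 3 of the 10 members with the highest mean are second rows over the first pair of U3 loci and the copy at 34888167 (ENSSSCG00000032140), which had 2935 ± 3401 RPKM in 1,25 NP veins and 5999 ± 7206 RPKM in vehicle veins (SD, n = 8 and n = 5). The highest vehicle library was P16, at 16880 RPKM, and the log2 difference was -0.058 (SE 1.22), or 0.77 without P16 and -1.23 without P17. All 10 overlapped between groups.

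Read one gene at a time, no snoRNA passed the test. The fit was limma with a mean-variance trend on log2(RPKM + 0.5) over the 14579 genes that met the same filter, with Benjamini-Hochberg adjustment over all of them. At an adjusted p of 0.05 it called 0 of 347 snoRNA genes and 0 of 14579 genes (0.0%). The smallest adjusted p of a snoRNA gene was 0.795 in limma. At an unadjusted p under 0.05 there were 13 snoRNA genes (3.75%), beside 585 of all genes (4.01%). Of the 13, 5 were higher in 1,25 NP veins, where the background was 0.803% of all genes, and 8 were lower, where it was 3.21%. The share of snoRNA genes past that mark was thus near that of all genes. The count of 13 was 47 without P28, 25 without P15 and 6 without P17. Over all 14579 genes the count of 585 moved as well, to 2213, 716 and 376 in the same order. No snoRNA gene had groups that did not overlap, and 14 of all genes did (0.096%).

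As a class, more snoRNA genes had a log2 difference above 0 than below it, with wide errors. The log2 difference was above 0 for 240 of 347 (69.2%), beside 43.8% of all genes, and its median was 0.30, beside -0.07 over all genes. The median standard error was 0.54 for snoRNA genes and 0.33 for all genes. Abundant and scarce members gave like counts: 148 of 216 with a mean of at least 10 RPKM had a difference above 0 (median 0.32), as had 92 of 131 below that level (median 0.24). Leaving out P31 and P42 gave 146 of 347 and a median of -0.08. With the median snoRNA level of each library as a covariate it was 162 of 347 and the median -0.05. That covariate was taken from the same 347 genes and removes their common movement. A median near 0 therefore follows from how it was made and cannot test the lean. Single libraries also moved the median by over 1.5 times: it was 0.036 without the vehicle library P13, 0.46 without P14 and 0.45 without P15, and among 1,25 NP libraries 0.53 without P28, 0.12 without P31, 0.20 without P32 and 0.15 without P42.

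**Figure D2:**
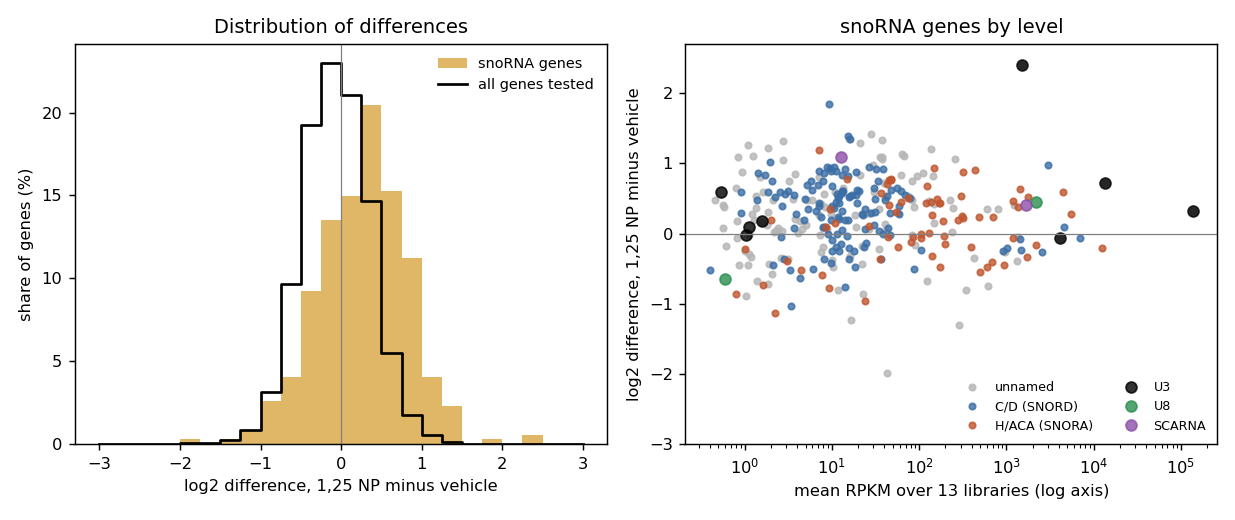
Left, share of genes (%, y axis) by log2 difference (1,25 NP minus vehicle, x axis) for 347 snoRNA genes (filled) and all 14579 genes tested (line); right, the log2 difference of each snoRNA gene (y axis) by its mean RPKM over 13 libraries (log axis), coloured by the family in its name. The snoRNA genes have a median of 0.30 beside -0.07 for all genes, differences of either sign occur at low and high levels, and none passed an adjusted p of 0.05.

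The 5 members with the smallest unadjusted p among those higher in 1,25 NP veins came from 3 places. SNORD79 (ENSSSCG00000018333, chromosome 9) had 13.5 ± 14.0 RPKM in 1,25 NP veins and 2.47 ± 2.21 RPKM in vehicle veins (SD, n = 8 and n = 5). Its lowest, median and highest levels in 1,25 NP veins were 0.907, 8.69 and 39.9 RPKM, and P13 to P17 held 1.46, 3.98, 5.57, 0.858 and 0.484 RPKM. The log2 difference was 1.84 (SE 0.74), and 7 of 8 treated libraries lay above the vehicle mean. SNORD16 (ENSSSCG00000019949), which lies within the ribosomal protein gene RPL4, had 19.9 ± 16.1 RPKM in 1,25 NP veins and 7.62 ± 6.59 RPKM in vehicle veins (SD, n = 8 and n = 5). Here 1,25 NP veins spanned 6.10, 11.7 and 49.9 RPKM as lowest, median and highest, and P13 to P17 held 4.08, 18.4, 8.71, 5.75 and 1.22 RPKM. Its log2 difference was 1.39 (SE 0.58). The other 3, ENSSSCG00000031829, ENSSSCG00000018261 and ENSSSCG00000039826, lie together on chromosome 7 among SNORD113 and SNORD114 genes. They averaged 1.72, 1.60 and 1.21 RPKM in 1,25 NP veins, against 0.521, 0.263 and 0.238 RPKM in vehicle veins, which is worth a few reads per library. The vehicle means of ENSSSCG00000018261 and ENSSSCG00000039826 lay under the 0.5 RPKM of the rule. These rows met it mainly through 1,25 NP libraries, so their differences lean upward by choice. For all 5 the groups overlapped, and limma's adjusted p was at least 0.795.

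Among the members lower in 1,25 NP veins, the smallest p belonged to ENSSSCG00000050219, a row of 112 bases on chromosome 11 within the spans of N4BP2L1 and ENSSSCG00000009341. It had 10.9 ± 4.43 RPKM in 1,25 NP veins and 25.5 ± 6.83 RPKM in vehicle veins (SD, n = 8 and n = 5). The lowest, median and highest levels in 1,25 NP veins were 5.99, 10.1 and 17.1 RPKM, and P13 to P17 held 20, 29.2, 30.7, 31.1 and 16.3 RPKM. All 8 treated libraries lay below the vehicle mean, with a log2 difference of -1.24 (SE 0.30), and the ranges still overlapped. A pair of unnamed rows within the histone chaperone gene NAP1L4 came next. ENSSSCG00000032948 had 205 ± 173 RPKM in 1,25 NP veins and 415 ± 156 RPKM in vehicle veins (SD, n = 8 and n = 5), and its neighbour ENSSSCG00000035241 had 23.4 ± 30.9 RPKM in 1,25 NP veins and 74.9 ± 64.3 RPKM in vehicle veins (SD, n = 8 and n = 5). P13 to P17 held 659, 322, 251, 384 and 461 RPKM of ENSSSCG00000032948, and the treated libraries ran from 62.1 to 591 RPKM with a median of 169. Their log2 differences were -1.30 (SE 0.48) and -1.98 (SE 0.76), while NAP1L4 itself had 0.10 (SE 0.23). SNORD125, within the clathrin adaptor gene AP1B1, had 11.3 ± 5.17 RPKM in 1,25 NP veins and 18.6 ± 4.31 RPKM in vehicle veins (SD, n = 8 and n = 5), a log2 difference of -0.76 (SE 0.28). AP1B1 had -0.37 (SE 0.31). Last of the 5 was ENSSSCG00000032677, at 0.708 RPKM in 1,25 NP and 1.59 RPKM in vehicle veins. Limma's adjusted p was 0.795 or more for each of these 5.

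The snoRNA genes moved together from library to library far more than between groups. Each gene's deviation from its own mean over the 13 libraries was taken on the log2(RPKM + 0.5) scale, and the median over the 347 genes was taken per library. In 1,25 NP veins it was -0.058 in P21, -0.016 in P22, -0.69 in P23, 0.23 in P24, -1.33 in P28, 1.22 in P31, 0.73 in P32 and 1.19 in P42. In vehicle veins it was -1.06 in P13, 0.49 in P14, 0.42 in P15, -0.071 in P16 and -0.51 in P17. Treated libraries thus stood at both ends, P31 and P42 at the top and P28 at the bottom, with the vehicle library P13 close to P28. P31 was the highest of the 13 libraries for 153 of 347 genes, P42 for 77 and P32 for 29. Among the 308 genes with a single lowest library, that library was P28 for 142, P13 for 50 and P21 for 30.

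Abundance did not follow that common movement in one respect. P28 had the lowest median deviation, yet its share of reads on snoRNA loci, 4.15%, was above the 3.39% of P23 and the 2.94% of P24. The most abundant U3 locus held 3.08% of the reads in P28, and the other loci 1.07%. The same locus held 2.39% in P23 and 1.69% in P24, and the other loci 1.01% and 1.25%. A sum over snoRNAs is therefore mainly a reading of U3, and the median over genes a reading of the many scarcer ones.

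**Figure D3:**
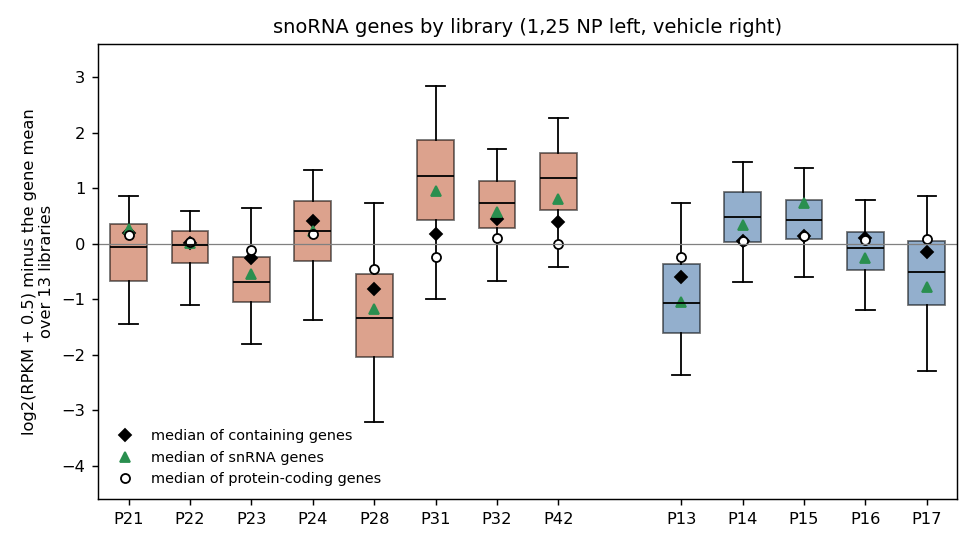
Deviation of each of 347 snoRNA genes from its own mean over 13 libraries (y axis, log2 of RPKM + 0.5), by library, with 1,25 NP libraries (orange) left of vehicle libraries (blue); boxes span the quartiles with the median as a line, whiskers reach the percentiles 5 and 95, and symbols are medians of containing genes, snRNA genes and protein-coding genes. The snoRNA medians run from -1.33 in P28 to 1.22 in P31, a wider span than those of their containing genes or of protein-coding genes.

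The first principal component of the 347 genes over the 13 libraries held 66.2% of their variance, beside 55.9% for 12590 protein-coding genes. Over 60025 pairs of snoRNA genes the median Spearman correlation across the 13 libraries was 0.50, and 79.9% of pairs were positive. Among the 260 genes that averaged at least 20 reads the median was 0.64. Over 207 pairs within the same containing gene it was 0.66. These correlations are a description: the pairs share 13 libraries and their depth. Small nuclear RNAs of the spliceosome had the same libraries at both ends, with median deviations of 0.94 in P31 and 0.81 in P42, and -1.19 in P28 and -1.04 in P13. For 243 such genes past the filter, 181 had a log2 difference above 0, with a median of 0.29, close to that of the snoRNA genes. Protein-coding genes had median deviations between -0.46 (P28) and 0.18 (P24). Rows of the biotype misc_RNA ran the other way: all 16 such rows together took 0.986% of reads in P28 and 0.0898% in P31.

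Some markers of cell types also stood at an extreme in P28 and P13, the 2 libraries where the snoRNA genes were lowest. The summed level of 5 fibroblast markers ran from 2406 (P42) to 13419 RPKM (P28) in 1,25 NP veins and from 2661 (P17) to 15044 RPKM (P13) in vehicle veins, but COL1A1, which encodes a chain of type I collagen, made up 73.3% of it. COL1A1 had 12994 RPKM in P28 and 14178 RPKM in P13. The other 4, PDGFRA, DCN, LUM and DPT, were each lowest in P28 among 1,25 NP veins, where their sum was 425 RPKM. In vehicle veins that sum was lowest in P17, at 806 RPKM, and was 867 RPKM in P13. Of the 5 markers 4 were above 0 in log2 difference, and 2 of 5 without P31 and P42. The summed level of 4 proliferation markers was lowest in P28 (7.36 RPKM) among 1,25 NP veins and in P13 (7.71 RPKM) among vehicle veins, with all 4 markers lowest in P28 and 3 of 4 in P13 within their groups. It reached 95.02 RPKM in 1,25 NP veins and 29.0 RPKM in vehicle veins. All 4 were higher in 1,25 NP veins on average (median log2 difference 1.18), 2 of them at an unadjusted p under 0.05 and none at an adjusted one. No marker of these lists was at 0 in every library, and the part of these markers in the snoRNA levels was not tested.

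Other marker lists gave further differences between libraries. The 3 neutrophil markers in the table summed to 612 RPKM in P31, and to between 0.832 and 130 RPKM in the other 1,25 NP veins, against 0.912 to 285 RPKM in vehicle veins; all 3 had a log2 difference above 0, and 2 of 3 without P31 and P42. The 5 contractile smooth muscle markers summed to 307 to 3901 RPKM (P28) in 1,25 NP veins and to 397 to 5368 RPKM (P17) in vehicle veins. All 5 were highest in P28 among 1,25 NP veins and in P17 among vehicle veins, and P13 held a sum of 760 RPKM. None of the 5 had a log2 difference above 0. Endothelial markers summed to 93.2 to 197 RPKM in 1,25 NP and 145 to 203 RPKM in vehicle veins, with 2 of 5 above 0, and 93.2 RPKM was P31. Macrophage markers summed to 87.0 to 307 RPKM in 1,25 NP and 90.2 to 406 RPKM in vehicle veins, with 2 of 4 above 0. Erythroid markers summed to 5.80 to 68.9 RPKM in 1,25 NP and 18.2 to 4401 RPKM in vehicle veins, the last in P17. The 3 of them that met the filter were lower at an unadjusted p under 0.05. No marker passed limma's adjusted p of 0.05, and their part in the snoRNA levels was not tested.

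By class, 96 of 132 SNORD genes had a log2 difference above 0, with a median of 0.40. Of 69 SNORA genes, 40 did, with a median of 0.19, and of 134 rows without a symbol 95 did, with a median of 0.29. When P31 and P42 were left out, the counts were 70 of 132 SNORD genes (median 0.023), 11 of 69 SNORA genes (-0.34) and 59 of the 134 (-0.05). H/ACA box genes had the higher RPKM, at a median of 131 RPKM beside 12.8 RPKM for C/D box genes. Whether RNAs of different lengths were recovered equally in the libraries was not tested. Gene length runs with class: SNORD genes had a median length of 78 bases and SNORA genes of 134 bases. Members of up to 74 bases had a difference above 0 in 61 of 75 cases (median 0.47), those of 75 to 89 bases in 61 of 79 (0.44), and those of 90 to 119 bases in 18 of 35 (0.01). For 120 to 139 bases it was 68 of 117 (0.11), and for 140 bases or more 32 of 41 (0.40). In the other 11 libraries, without P31 and P42, the counts from the shortest to the longest of these ranges were 47 of 75, 45 of 79, 12 of 35, 24 of 117 and 18 of 41. Classes and lengths share libraries and overlap in membership, and the difference between them was not tested.

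A snoRNA cut from an intron shares its primary transcript with the gene around it. The table gives spans but no strand and no exons, so a containing gene here is a protein-coding or long noncoding row whose span holds the snoRNA. A single such row was found for 262 members, several for 39 and none for 46. Among the 262, 229 lay in 143 protein-coding rows and 33 in 13 long noncoding ones. Ribosomal protein genes held 45 of them, in 20 genes; 32 of the 45 had a log2 difference above 0, with a median of 0.29. Of the 156 containing genes 154 were tested. They had a median log2 difference of 0.12, with 96 above 0 and none called at an adjusted p of 0.05 in limma. At an unadjusted p under 0.05 there were 4, all lower. Of all 14579 genes 585 (4.01%) passed that mark, 468 of them lower.

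Over 260 pairs of a snoRNA and its containing gene, the Spearman correlation of their log2 differences was 0.46, and 180 pairs had the same sign, 125 above 0 and 55 below. In 45 pairs the snoRNA was above 0 and the containing gene below, and in 35 the reverse. Within a pair, over the 13 libraries, the median correlation was 0.57, and 208 of 260 were positive. The containing genes had a narrower span over libraries, from -0.81 in P28 to 0.45 in P32, and they were not at their highest in P31, where their median deviation was 0.18. These values are a description, since pairs within 1 gene share that gene and all share the libraries. The 9 pairs within TEX14 include overlapping rows of the same U3 loci. Whether reads of a snoRNA were also counted in its containing row was not tested. The correlation over libraries was 1 for U8 (ENSSSCG00000023729) and TMEM107, and 0.989 for SNORA9 and ENSSSCG00000045735.

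**Figure D4:**
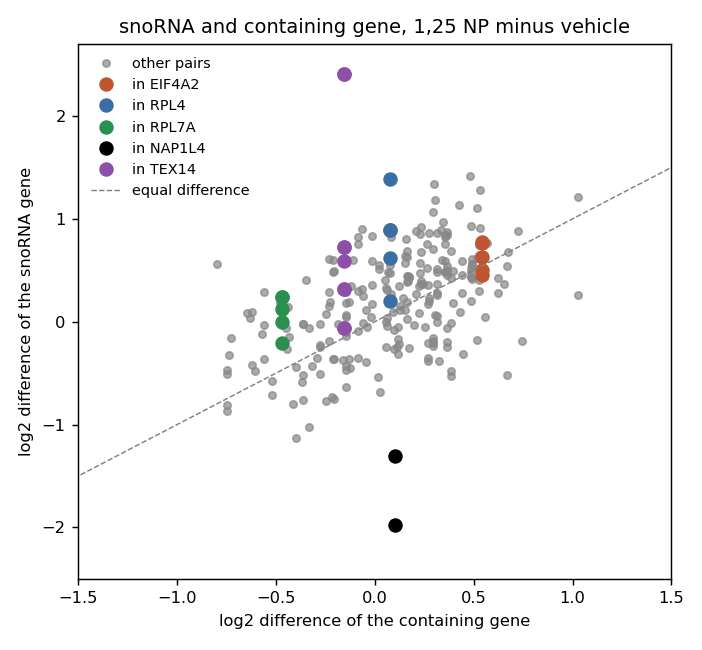
Log2 difference (1,25 NP minus vehicle) of the containing gene (x axis) and of the snoRNA gene (y axis) for 260 pairs, each point 1 pair, with pairs in 5 named genes coloured and a dashed line where both differ equally. Pairs higher on one axis tend to be higher on the other (Spearman 0.46) and 180 of 260 share a sign, with the snoRNA genes spread more widely than the genes that contain them.

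Some containing genes and their snoRNAs had like differences. EIF4A2, a translation initiation helicase, had 166 ± 64.3 RPKM in 1,25 NP veins and 117 ± 56.9 RPKM in vehicle veins, a log2 difference of 0.54 (SE 0.37). Its 5 snoRNAs had differences between 0.45 (SNORA81) and 0.78 (SNORA4). The most abundant of them, SNORA63 (ENSSSCG00000019309), had 1813 ± 2225 RPKM in 1,25 NP veins and 853 ± 706 RPKM in vehicle veins (SD, n = 8 and n = 5). NOP58, a core protein of C/D box particles, had a log2 difference of 0.49 (SE 0.43), and its 4 snoRNAs between 0.42 and 0.61. For the nucleolar GTPase gene GNL3 the difference was 0.49 (SE 0.39), and its 3 snoRNAs lay between 0.49 and 0.93. WDR43, a part of the U3 processome, had 0.48 (SE 0.43), and its 3 snoRNAs lay between 0.20 and 0.44. NOP56, the partner of NOP58, had 0.31 (SE 0.28), with 4 of its 5 snoRNAs above 0, up to 0.36. Without P31 and P42, 3 of 5 snoRNAs of EIF4A2, 2 of 4 of NOP58, 3 of 3 of GNL3, 1 of 3 of WDR43 and 2 of 5 of NOP56 were above 0.

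Within RPL4, RPL7A and RPS12 the snoRNAs lay above the gene that contains them. RPL4 had 121 ± 41.8 RPKM in 1,25 NP veins and 111 ± 29.9 RPKM in vehicle veins, a log2 difference of 0.075 (SE 0.31). All 5 snoRNAs within it were above 0, from 0.20 to 1.39. RPL7A had -0.47 (SE 0.40), with its 5 SNORD24 and SNORD36 rows between -0.21 and 0.24. The ribosomal protein gene RPS12 had 0.23 (SE 0.35), and its 3 snoRNAs lay between 0.47 and 0.86. Other containing rows were below 0, as were most of their snoRNAs. RPL3 had -0.15 (SE 0.29), and 1 of its 4 snoRNAs was above 0, at 0.05. The SNORD33, SNORD34 and SNORD35A rows lie within the span the table gives FLT3LG and were all below 0, from -0.51 to -0.018, though 1 of the 4 was above 0 under either other scaling of libraries. The row itself had -0.28 (SE 0.32). The unnamed long noncoding row ENSSSCG00000045200 contains 4 members, among them SNORD88B and SNORD88C, and all were below 0, from -0.86 to -0.47. That row had 4.90 ± 2.07 RPKM in 1,25 NP veins and 8.35 ± 3.25 RPKM in vehicle veins, a log2 difference of -0.75 (SE 0.34).

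Genes that lie close together formed 11 groups of at least 5 members with gaps of at most 50 kb, 95 members in all. In all 11 the median deviation was highest in P31 (5 groups) or P42 (6 groups), and in 8 it was lowest in P28. The widest movement was in a group of 11 on chromosome 9 (116145312 to 116148792) that holds SNORD79, SNORD81 and SNORD24; in human, SNORD79 and SNORD81 lie in introns of GAS5. All 11 had a log2 difference above 0, with a median of 1.06, and their median deviation ran over 4.36 on the log2 scale, from -2.32 in P28 to 2.04 in P31. All 11 were still above 0 without P31 and P42, with a median of 0.53, and without P28 and P13 all 11 were, with a median of 1.23. SNORD81 had 13.9 ± 10.2 RPKM in 1,25 NP veins and 5.53 ± 3.21 RPKM in vehicle veins (SD, n = 8 and n = 5), with a log2 difference of 0.95 (SE 0.63). ENSSSCG00000039255, in the same group, had 49.0 RPKM in 1,25 NP and 19.3 RPKM in vehicle veins, with a log2 difference of 1.33 (SE 0.68). SNORD24 (ENSSSCG00000019612) had 78.9 RPKM in 1,25 NP and 36.9 RPKM in vehicle veins, with 0.61 (SE 0.76).

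A second group on chromosome 9 (26147615 to 26160013) lies within TAF1D, whose product is a factor of RNA polymerase I, and mostly within CEP295 as well. Its 10 members were all above 0, with a median of 0.52, and ran from -2.30 in P28 to 1.81 in P31. Only 5 of the 10 were above 0 without P31 and P42, with a median of -0.0053. SNORA8, the most abundant of them, had 1338 ± 1487 RPKM in 1,25 NP veins and 921 ± 957 RPKM in vehicle veins (SD, n = 8 and n = 5). SNORD5 had 49.7 RPKM in 1,25 NP and 32.4 RPKM in vehicle veins, and its log2 difference was 0.53 (SE 0.72). The 5 genes within EIF4A2 on chromosome 13 ran as widely, from -2.11 in P28 to 2.05 in P31. Those within RPL4 on chromosome 1 ran from -1.56 in P28 to 2.19 in P31, with a median log2 difference of 0.89, which was 0.21 without P31 and P42, with 4 of 5 above 0. A range over 13 libraries is by construction at least as wide as a difference between group means of the same values. These spans are therefore a description.

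On chromosome 2 the 8 genes named SNORD22 and SNORD26 to SNORD31 lie within the long noncoding row ENSSSCG00000043175. In human, these RNAs come from SNHG1. The median log2 difference was 0.47, with 5 of 8 above 0, and without P31 and P42 it was 0.068, with 4 of 8 above 0. The highest differences were those of SNORD31 and SNORD29: SNORD31 had 23.6 RPKM in 1,25 NP and 11.1 RPKM in vehicle veins (0.88 on the log2 scale) and SNORD29 had 16.3 RPKM in 1,25 NP and 7.79 RPKM in vehicle veins (0.84). The pair of SNORD22 rows, far more abundant, had log2 differences of -0.058 and -0.25, and SNORD26, one of the scarcer members at a mean of 11.2 RPKM, had -0.20. The containing row had 22.6 ± 8.16 RPKM in 1,25 NP veins and 16.5 ± 5.03 RPKM in vehicle veins, a log2 difference of 0.37 (SE 0.36).

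SNORD113 and SNORD114 genes, which in human lie in an imprinted region and are expressed from the maternal copy, formed the group with the most members, 27 on chromosome 7 (121751190 to 121842444). Of these, 25 were above 0, with a median log2 difference of 0.60, and 3 had an unadjusted p under 0.05. The count without P31 and P42 was 22 of 27, with a median of 0.44, and without P28 and P13 it was 24 of 27, with 0.73. They were scarce, with a median level of 1.86 RPKM. SNORD113-1 had 2.40 ± 1.76 RPKM in 1,25 NP veins and 1.20 ± 1.67 RPKM in vehicle veins (SD, n = 8 and n = 5), with 1.02 (SE 0.63), and SNORD114-1 had 3.89 ± 3.21 RPKM in 1,25 NP veins and 2.00 ± 1.56 RPKM in vehicle veins (SD, n = 8 and n = 5), with 0.61 (SE 0.54). SNORD113-4 was one of the pair below 0, at -0.45. Members of this group had few reads, and the rule asked for 5 libraries of any group. Members that met it mainly through 1,25 NP libraries therefore lean upward by choice. ENSSSCG00000018261 and ENSSSCG00000039826, both among the 3 with an unadjusted p under 0.05 in limma, had vehicle means under 0.5 RPKM.

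Against the common lean, the 5 SNORA71 genes on chromosome 17 (41466321 to 41494785) were all below 0, with a median of -0.48, and remained so without P31 and P42 (median -0.68), without P28 and P13 (-0.60) and under both other scalings of libraries. The most abundant (ENSSSCG00000021542) had 865 ± 409 RPKM in 1,25 NP veins and 1055 ± 197 RPKM in vehicle veins (SD, n = 8 and n = 5), and its log2 difference was -0.44 (SE 0.40). The scarcest (ENSSSCG00000037739) had 1.38 ± 1.07 RPKM in 1,25 NP veins and 3.53 ± 1.94 RPKM in vehicle veins (SD, n = 8 and n = 5), with -1.13 (SE 0.48) and no treated library above the vehicle mean. The group ran from -1.41 in P24 to 0.62 in P42, so that here too P42 was the highest, with the vehicle library P14 at 0.56. P31 stood at 0.10, and P28 (0.17) and P13 (0.032) were above the gene mean, unlike in the common movement. The rows are copies of 1 family, and their reads are uncertain where copies are alike.

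**Figure D5:**
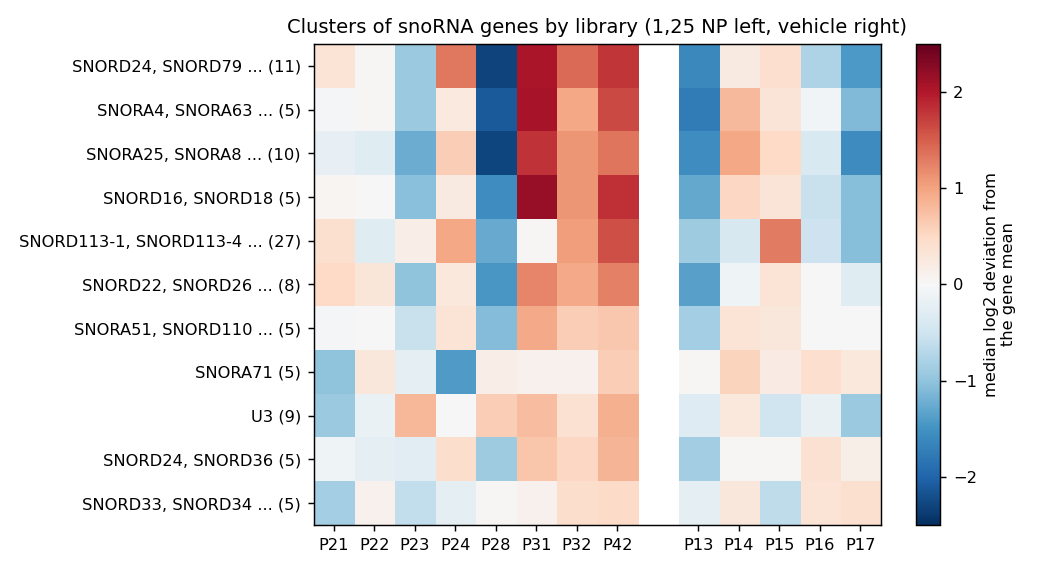
Median deviation (log2 of RPKM + 0.5, red above and blue below the gene mean) of each of 11 groups of neighbouring snoRNA genes (rows, with the number of members in brackets) in each library (columns), with 1,25 NP libraries left of vehicle libraries across the white gap. Every row is highest in P31 or P42, and 8 of 11 are lowest in P28.

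The proteins that build and use snoRNAs were read from lists of pathway genes. No gene of the 7 lists passed limma's adjusted p of 0.05, and none had an unadjusted p under 0.05. All 4 tested core proteins of C/D box particles had a log2 difference above 0 (median 0.24), among them the methyltransferase FBL, at 13.7 ± 4.64 RPKM in 1,25 NP and 11.8 ± 2.33 RPKM in vehicle veins, a log2 difference of 0.16 (SE 0.26). All 3 tested core proteins of H/ACA particles were above 0 (median 0.48). The pseudouridine synthase DKC1 had 5.76 ± 1.85 RPKM in 1,25 NP and 4.78 ± 1.11 RPKM in vehicle veins, a log2 difference of 0.22 (SE 0.25). GAR1 had 4.33 ± 2.36 RPKM in 1,25 NP and 2.48 ± 0.951 RPKM in vehicle veins, a log2 difference of 0.59 (SE 0.36), and NOP10 had 22.5 ± 11.5 RPKM in 1,25 NP and 14.7 ± 5.73 RPKM in vehicle veins, a log2 difference of 0.48 (SE 0.44). The summed level of these 3 was 44.9 RPKM in P31, 47.7 RPKM in P32 and 47.3 RPKM in P42, and 12.98 RPKM in P28, while it ran from 12.3 RPKM (P13) to 26.8 RPKM (P15) in vehicle veins. NOP10 made up 68.4% of that sum. NOP10 and GAR1 were lowest in P28 and in P13 within their groups, while DKC1 was lowest in P31 among 1,25 NP veins, at 3.35 RPKM. The median difference of the 3 was 0.31 without P31 and P42.

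Of 19 tested proteins of the small subunit processome that U3 works in, 14 were above 0, with a median of 0.32, and without P31 and P42 16 were, with 0.16. Summed, they ran from 74.4 RPKM in P28 to 182 RPKM in P32 in 1,25 NP veins, and from 71.8 RPKM in P13 to 121 RPKM in P15 in vehicle veins. Of 16 factors of particle assembly and trafficking 8 were above 0 (median -0.063), as were 7 of 14 genes of RNA polymerase I and the nucleolus (0.026), or 11 of 14 under median-of-ratios scaling. For release of introns and trimming of snoRNA ends, 5 of 8 were above 0 (0.17, or 0.025 without P31 and P42), and of 35 textbook host genes 23 were (0.10). Over all genes the share above 0 was 43.8% and the median -0.07.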

How the data were processed

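RNA-seq was made from outflow veins of 8 pigs of the 1,25 NP group and 5 of the vehicle group, with 0.5 µg of total RNA and the TruSeq V2 kit per the labels' protocols. The labels' treatment text describes a mouse experiment and the submitters' processing notes name a mouse build; neither matches the pig identifiers of the table, and neither was used. Which aligner, counter, pig build or annotation was used is stated in no source used here, and coordinates are those of the table.

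The authors deposited a table of 30477 genes without naming its unit. RPKM was inferred for the deposited values: multiplied by (length + 1) and the library total, 100% of them came to whole reads within 0.001. These recovered reads describe depth and feed voom. The total is the sum over rows, and rows that overlap can share reads. No source used here names the strand setting. Columns carry a group, an animal code and a sex and no replicate number, so they were assigned to groups only. The number of per-sample columns without a group was 0.

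Limma 3.58.1 (R 4.3.3, trended prior variance) was run on log2(RPKM + 0.5). It covered every gene that exceeded 0.5 RPKM in 5 or more libraries, 14579 genes, with p-values adjusted by Benjamini-Hochberg over all of them, and was tested on simulated data. Log2 differences of low genes are understated by this scale. Sums, shares, deviations and correlations are descriptions. The members and the gene lists (C/D and H/ACA core, assembly, U3 processome, RNA polymerase I, intron release, textbook hosts, and markers of smooth muscle, endothelium, fibroblast, erythroid, neutrophil, macrophage, skeletal muscle and proliferating cells) were chosen with earlier results of these data known. Named by rule are the 10 members with the highest mean, the 5 with the smallest p in each direction, the 2 rows on each side of the filter, and containing genes, of which some with at least 3 members are described along with those of members already named. From the lists, only the core proteins are given by name. Neighbouring groups were formed after the values were seen. Other alternatives were another pseudocount, filter, test, scaling, sex as covariate and each library left out. Leaving out P31 with P42 or P28 with P13, the snoRNA median as covariate, scaling to protein-coding reads and 1 row per locus were chosen after seeing the data. Figures were drawn with matplotlib 3.10.9.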

Additional observations from a re-analysis of the deposited data

Results flagged for a closer look

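In groups of 5 and 8 libraries, the lowest or highest library was compared with the rest for each of 27 named snoRNA genes and containing genes and for the median deviation of the snoRNA genes, and in 2 of 56 groups it stood apart by Dixon's criterion, which chance exceeds in about 1 of 20 groups. AP1B1, the gene that contains SNORD125, was lowest among 1,25 NP veins in P31, at 4.90 RPKM, or 2.43 as log2(RPKM + 0.5). ENSSSCG00000043175, the long noncoding row that contains SNORD22 and SNORD26 to SNORD31, was lowest among 1,25 NP veins in P28, at 5.79 RPKM, or 2.65 as log2(RPKM + 0.5).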

How the results depend on the processing

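No setting called a snoRNA gene at an adjusted p of 0.05 (limma or voom); their smallest adjusted p in any setting was 0.322. Over all genes 0 were called in each setting but 1, where 1 gene that is no snoRNA was called without the vehicle library P17. The 13 snoRNA genes with an unadjusted p under 0.05 became 8 with a filter of 10 reads in 5 libraries. They became 23 without P28 and P13, 38 with the snoRNA median as covariate, and 6 to 47 with each library left out. For all genes the count of 585 became 771 of 17538 with that filter, 886 without P28 and P13 and 1323 with the covariate. With each library left out it was 345 to 2213. The 240 genes above 0 became 146 without P31 and P42, and 183 to 267 with each library left out. The ratio of summed RPKM ran from 1.11 to 1.51 with each library left out, and was 1.18 without the 5 most abundant members, 1.47 with median-of-ratios scaling and 1.29 with 1 row per locus. That scaling raised the share of members above 0 to 75.2%. The causes were not tested.

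Of 644 log2 differences of 27 named genes under alternatives, 29 changed sign, in 8 genes. With median-of-ratios scaling, ENSSSCG00000029549 (SNORD22) was at 0.049 and the U3 copy ENSSSCG00000032140 at 0.048. Without P31 and P42, ENSSSCG00000032140 was at 0.030, the top U3 rows ENSSSCG00000040361 and ENSSSCG00000036511 at -0.0056, the SNORA73 row ENSSSCG00000034185 at -0.047 and SNORD17 at -0.084. Without P28 and P13, SNORD17 was at -0.036 and ENSSSCG00000032140 at 0.28. With the covariate, ENSSSCG00000034185 was at -0.061, SNORD17 at -0.030 and RPL4 at -0.063. With each library left out, the range was -0.27 to 0.15 for ENSSSCG00000029549, -0.088 to 0.25 for RPL4, -0.45 to 0.039 for SNORA48, -1.23 to 0.77 for ENSSSCG00000032140, -0.089 to 0.31 for SNORD17 and -0.032 to 0.58 for ENSSSCG00000034185. No paired analysis was possible because the columns carry no replicate numbers. Depth limits the 87 members that averaged fewer than 20 reads.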

Other observations

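The 4 abundant U3 loci on chromosome 12 shared the U3 reads differently from animal to animal. The locus at 34885727 held between 76.6% (P24) and 91.7% (P31) of the U3 reads in 1,25 NP veins and between 85.4% (P16) and 91.9% (P15) in vehicle veins. The locus at 34899381 held 21.7% in P24 and between 5.30% and 12.6% in the other 1,25 NP veins, against 5.56% to 9.03% in vehicle veins. The locus at 34888167 held between 0.051% (P31) and 4.05% (P42) in 1,25 NP veins and between 0.075% (P17) and 9.05% (P16) in vehicle veins.

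The locus at 34902950 fell into separate levels. It held at most 0.073% of the U3 reads in 6 libraries and at least 0.584% in the other 7, of which 5 were 1,25 NP and 2 were vehicle. In 1,25 NP veins the shares were 0.043% in P21, 0.042% in P22, 0.707% in P23, 0.073% in P24, 1.90% in P28, 2.29% in P31, 2.23% in P32 and 0.902% in P42. In vehicle veins they were 0.749% in P13, 0.028% in P14, 0.584% in P15, 0.021% in P16 and 0.038% in P17. This locus had the highest log2 difference of any snoRNA gene, 2.41 with a standard error of 1.38 (limma, adjusted p of at least 0.795), and both groups held libraries at each level.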
